A study of Homo sapiens with 36 samples.

Results

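F182del is a variant of AGO2 that lacks one phenylalanine, and the 6 libraries described here are the 3 immunoprecipitates (IP) of this protein and the 3 lysates (input) they were taken from, out of 36 small RNA libraries in the series. They were chosen by their genotype and fraction, and each IP was paired with the input of the same replicate number. All libraries come from HEK293T, an embryonic kidney cell line that is transfected easily, and the cells of every group also received pEGFP-C1, a vector for a green fluorescent protein. The vector coded for Flag/HA-tagged AGO2 with F182del, for the tagged wild-type protein (WT) or for the tag alone (empty vector). Anti-HA beads pulled down the tagged protein, and the RNA left on the beads after low-salt and high-salt washes was sequenced beside RNA from an aliquot of the cleared lysate. The line was not stated to lack its own AGO proteins in this experiment, so the input can hold miRNAs bound to these as well as to the tagged protein. WT (6 libraries) and the empty vector (6 libraries) are used only where F182del is compared with them. Nothing says that the replicates came from separate cultures, so p-values rest on the spread between these libraries, which may be technical. For single miRNAs this spread was taken from a trend over all of them, and is not each miRNA's own. Only miRNAs are listed, so the cell type could not be checked against its marker genes.

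A miRNA is cut from a hairpin as a duplex of a 5p and a 3p strand. AGO2 takes up the duplex, keeps one strand as the guide and lets the other, the passenger, go, and the guide then directs the protein to mRNAs that pair with its seed, the bases near its 5′ end. F182del lies in the hinge of the protein that lets its helix-7 move, an element that touches the paired guide and target. The comparison of IP with input asks which miRNAs are held by the variant protein more or less often than their share of the lysate. The files follow MirGeneDB names, in which an asterisk marks the passenger strand.

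The sequences below belong to miRNAs that rose or fell in the F182del IP or differed from WT. They show the 2 strands of one hairpin that both rose, a pair of paralogues with one seed, and the contrast between members of the risen and fallen groups. They are RefSeq mature sequences on GRCh38.p14, written 5′ to 3′ with the seed (bases 2 to 8) in capitals. A RefSeq mature sequence was matched to 28 of the 124 miRNAs measured, by number and strand or, for 5 of them, because the hairpins of the family leave 1 choice.
Hsa-Mir-423_5p, higher in IP: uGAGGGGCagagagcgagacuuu
Hsa-Mir-423_3p, higher in IP: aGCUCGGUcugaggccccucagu
Hsa-Mir-671_3p, higher in IP: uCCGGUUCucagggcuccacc
Hsa-Mir-577_5p, higher in IP: uAGAUAAAauauugguaccug
Hsa-Mir-340_5p, lower in IP: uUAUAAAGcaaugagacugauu
Hsa-Mir-1307_5p, lower in IP: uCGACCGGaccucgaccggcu
Hsa-Mir-128-P1_3p and Hsa-Mir-128-P2_3p, lower in IP: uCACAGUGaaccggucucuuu
Hsa-Mir-218-P2_5p and Hsa-Mir-218-P4_5p, lower in IP: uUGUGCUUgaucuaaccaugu
Hsa-Mir-26-P2_5p, lower in IP: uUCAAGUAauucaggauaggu
Hsa-Mir-26-P1_5p and Hsa-Mir-26-P4_5p, same seed as Hsa-Mir-26-P2_5p: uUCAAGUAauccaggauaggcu
Hsa-Mir-1910_5p*, difference from WT: cCAGUCCUgugccugccgccu

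The strands of Mir-423 lie on the plus strand at chr17:30117095-30117117 (5p) and chr17:30117131-30117153 (3p), within an exon of an annotated transcript of NSRP1 (GENCODE 29). Hsa-Mir-671_3p lies at chr7:151238488-151238508 on the plus strand, in an exon of CHPF2 that is coding in at least 1 transcript. Hsa-Mir-577_5p is in an intron of UGT8 at chr4:114656774-114656794, Hsa-Mir-340_5p in an intron of RNF130 at chr5:180015361-180015382 on the minus strand, and Hsa-Mir-1910_5p* in an intron of C16orf74 at chr16:85741669-85741689 on the minus strand. Hsa-Mir-1307_5p overlaps an exon of ATP5MD at chr10:103394341-103394361 on the minus strand. The 3p sequence of Mir-128 is carried by 2 hairpins, in introns of R3HDM1 (chr2:135665446-135665466) and ARPP21 (chr3:35744527-35744547), and the 5p sequence of Mir-218 by 2 hairpins, in introns of SLIT2 (chr4:20528299-20528319) and SLIT3 (chr5:168768211-168768231, minus strand). The Mir-26 hairpins sit in introns of genes of one phosphatase family, with Hsa-Mir-26-P2_5p in CTDSP1 (chr2:218402657-218402677) and the sequence of the other 2 in CTDSPL (chr3:37969413-37969434) and CTDSP2 (chr12:57824658-57824679, minus strand). Among the miRNAs that rose, those printed share no seed with each other or with those that fell.

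Mature miRNAs took up 4.19%, 3.19% and 2.42% of all reads in the 3 F182del IP libraries and 0.288%, 0.302% and 0.272% in their inputs. Every IP library was above every input library, by 11.3 ± 2.90 times within pairs (SD, n = 3). The 95% Wilson intervals reached at most 0.110 percentage points from these shares in IP and 0.0103 in input, and such intervals cover counting error only, since PCR copies were not told apart. The same ratio was 18.4 ± 8.40 for WT, and 2.43 ± 1.16 for the empty vector, whose IP holds no tagged AGO2 (SD, n = 3 each). In exact permutation tests, two-sided, on log2 of the ratio, F182del differed from WT at p = 0.3 (adjusted p = 0.3) and from the empty vector at p = 0.1 (adjusted p = 0.2), where 0.1 is the smallest p that 3 against 3 can give. F182del ratios lay above all 3 of the empty vector and overlapped those of WT. The mature miRNA share of the empty vector IP was 21.5% of that of the F182del IP, and this background rests on 174 to 202 reads per library.

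**Figure D1:**
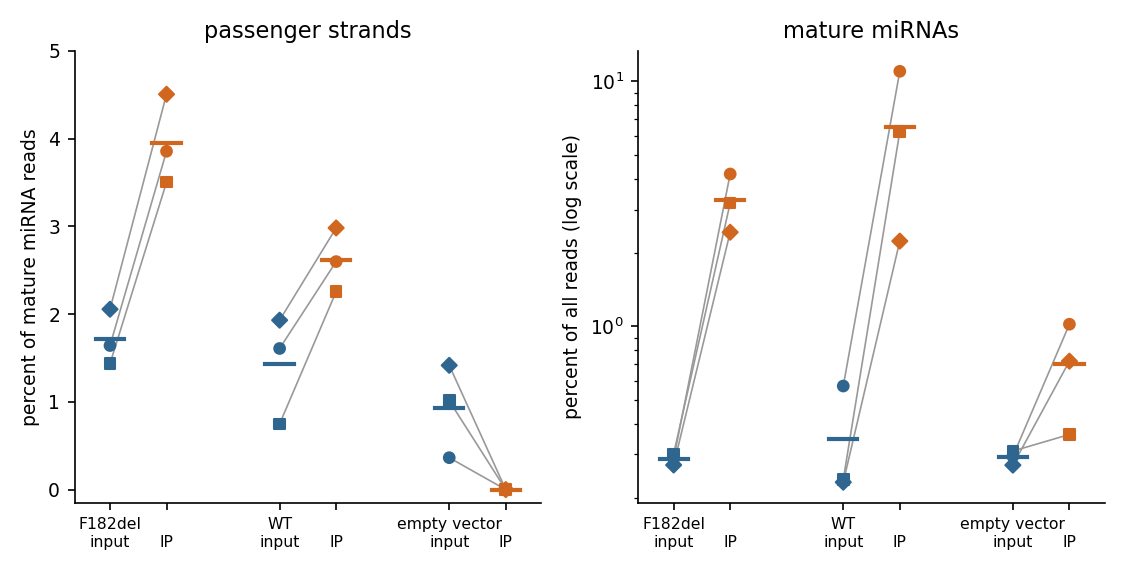
Share of passenger strands in mature miRNA reads (left, percent) and of mature miRNAs in all reads (right, percent, log axis) in input (blue) and IP (orange) for F182del, WT and the empty vector. Each symbol is 1 library, circles, squares and diamonds stand for replicates 1, 2 and 3, grey lines join the libraries of a replicate, and bars are means of 3. The passenger share is higher in IP than in input in all 3 pairs of F182del and of WT and is 0 in the empty vector IP.

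Levels are given from here as mature RPM, the reads of a miRNA per 1000000 mature miRNA reads of the library, so that a rise means a larger share of the miRNAs held and not more RNA. The IP libraries hold 8846, 3226 and 18271 mature miRNA reads and the inputs 3107, 5507 and 3747, so a value listed at 0 allows up to 3 reads, or 164 to 930 mature RPM in IP and 545 to 966 in input. In the 6 libraries only 17 listed values stand for 1 read, against 71 for 2 reads, and 14 of the 17 belong to miRNAs that share reads with another, so a 0 can also stand for a single read. Differences are log2(IP + 100 mature RPM) minus log2(input + 100 mature RPM), n = 3 pairs. They are given with the standard error (SE) of limma's paired fit and Benjamini-Hochberg adjusted p-values over all miRNAs tested. The added 100 shrinks differences between low values above 0. A value listed at 0 enters as 100 mature RPM, less than 1 read is worth in any F182del input. Such a 0 can enlarge a difference. The pairs of Hsa-Mir-671_3p gave 1.90, 6.11 and 1.89, and only the input of pair 2 was listed at 0.

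Of 121 miRNAs tested, 13 were higher in the F182del IP than in its input (10.7%) and 15 were lower (12.4%), at an adjusted p below the threshold of 0.05 and a log2 difference above 1 in size. The 13 comprised 7 passenger strands and the 15 comprised 1, among 23 passenger strands and 98 guides tested. All 28 moved the same way in the 3 pairs. Of the 13, all had IP libraries entirely above the inputs, which 23 of the 121 tested had (19.0%), and 14 of the 15 lay entirely below, which 23 of the 121 had (19.0%). The median over all tested was 0.08 and 46 of 121 had an unadjusted p below 0.05. The calls rest on few pairs, since without replicate 1, 2 and 3 the fits called 8, 5 and 4 higher, of which 8, 3 and 4 were among the 13, and 8, 7 and 7 lower, of which 7, 7 and 6 were among the 15. Only 2 of the 13 (Hsa-Mir-423_5p and Hsa-Mir-221-P1a_5p*) and 5 of the 15 passed whichever replicate was left out, and without a trend of the spread on the level, an alternative added after seeing the data, 9 were higher and 5 lower.

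**Figure D2:**
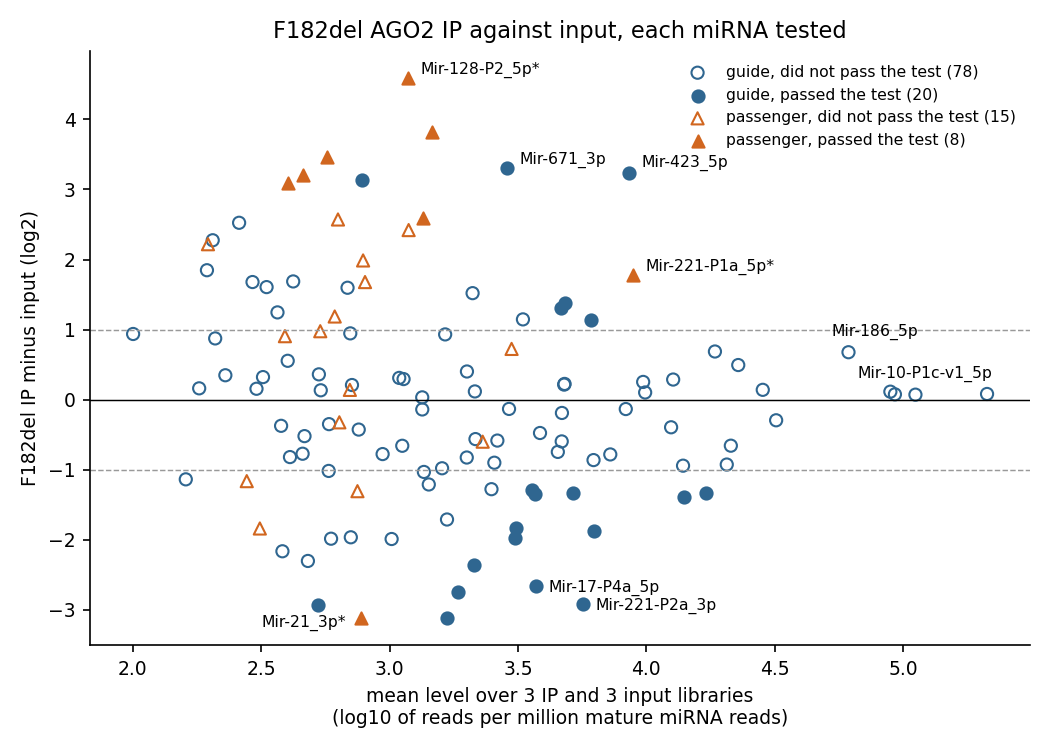
Difference between F182del IP and input (y axis, log2) against the mean level over the 6 libraries (x axis, log10 of mature RPM) for the 121 miRNAs tested, with guides as circles, passenger strands as triangles, filled where the test was passed, and dashed lines at a difference of 1. The 7 passenger strands that rose lie above 1.5, and the most abundant miRNAs lie near 0.

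Hsa-Mir-423_5p showed the clearest rise. Its level was 16278, 21389 and 8921 mature RPM in IP and 1931, 726 and 2135 in input. Each IP library was far above each input library, and the difference was 3.24 (SE 0.38, adjusted p = 1.65e-13). It passed the test in all 12 alternative fits, though without the trend of the spread its adjusted p was 0.049. The opposite strand, Hsa-Mir-423_3p, which MirGeneDB does not mark as a passenger, stood at 7913, 8370 and 8593 mature RPM in IP and 5793, 2724 and 3203 in input. Its groups were also apart, with a smaller difference of 1.14 (SE 0.35, adjusted p = 0.00792), and it passed in 8 of the 12 alternatives. Neither strand had a read in the empty vector IP.

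The passenger strand with the most reads was Hsa-Mir-221-P1a_5p*, of a family whose guides, not this strand, are known for lowering the cell cycle inhibitor p27. It stood at 10287, 13329 and 18171 mature RPM in IP and at 3540, 4358 and 3736 in input. The groups lay far apart, with a difference of 1.79 (SE 0.32, adjusted p = 1.96e-06) that was kept when each replicate was left out. Without the trend of the spread its adjusted p in limma's fit was 0.0757, and it did not pass. The guide of a paralogous hairpin, Hsa-Mir-221-P2a_3p, went the other way, at 1583, 620 and 1751 mature RPM in IP and 7403, 13074 and 9608 in input. Its difference was -2.91 (SE 0.43, adjusted p = 8.55e-09), although the 3 reads of it in the empty vector IP amount to 48.6% of its RPM (reads mature RPM of all reads) in the F182del IP.

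Hsa-Mir-128-P2_5p* was present in every F182del IP library, at 2148, 3100 and 1861 mature RPM (19, 10 and 34 reads), and listed at 0 in every input. Against 3 reads per input library it was at least 3.08-fold higher, and its adjusted p was 0.00119. The guide of its hairpin, Hsa-Mir-128-P2_3p, fell, at 1130, 2480 and 2463 mature RPM in IP against 2897, 5992 and 7206 in input (difference -1.35, SE 0.46, adjusted p = 0.0204). Hsa-Mir-128-P1_3p has the same sequence and nearly the same reads (within 10% in 11 of 12 libraries of F182del and WT), so its own call (difference -1.28, SE 0.47, adjusted p = 0.0256) is not a separate one. Mir-128 is best known from neurons. In the pooled F182del IP the passenger made up 63 of the 126 reads listed for the Mir-128-P2 strands, or 50.0% (95% Wilson interval 41.4 to 58.6). In the pooled input it made up 0 of 69, with an interval up to 5.27%. The guide reads can come from either hairpin, so the passenger share of Mir-128-P2 alone is not determined.

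The other passenger strands that rose had fewer reads in input. Hsa-Mir-130-P3b_5p* stood at 2374, 2170 and 3612 mature RPM in IP and 644, 0 and 0 in input, a ratio of pooled reads of 19.1 with a 95% counting interval of 5.16 to 160 (adjusted p = 0.00321). Hsa-Mir-181-P1a_3p*, of a family known from lymphocyte development, stood at 2374, 1860 and 2518 mature RPM in IP and 0, 545 and 801 in input (difference 2.59, SE 0.93, adjusted p = 0.0252), and without replicate 1 the difference was 1.57 with an adjusted p of 0.158. Both lay apart from their inputs, but with few input reads behind them. Hsa-Mir-193-P1a_5p* (2035, 620 and 766 mature RPM in IP), Hsa-Mir-30-P2d_3p* (1583, 620 and 547) and Hsa-Mir-17-P4d_3p* (565, 1240 and 602) were listed at 0 in all 3 inputs. Against 3 reads per input library the rise was at least 1.48-fold for the first, 1.19-fold for the second and 1.04-fold for the last, with adjusted p of 0.0149, 0.0241 and 0.0252. These bounds are close to 1, so the input depth sets how much of a rise can be stated, and none of the 3 passed when any replicate was left out.

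The guides that rose beside Mir-423 were few. Hsa-Mir-671_3p stood at 5087, 6820 and 3229 mature RPM in IP and 1287, 0 and 801 in input (difference 3.30, SE 0.70, adjusted p = 6.84e-05), but without replicate 2, whose input is listed at 0, the difference was 1.89 with an adjusted p of 0.0757. Hsa-Mir-95-P2_3p stood at 5087, 6820 and 9304 in IP and 2575, 3087 and 2135 in input (difference 1.38, SE 0.40, adjusted p = 0.00448). Hsa-Mir-577_5p stood at 4748, 6200 and 8921 in IP and 4184, 2361 and 1601 in input (difference 1.31, SE 0.41, adjusted p = 0.00792). In all of them the IP libraries lay above the inputs, and for Hsa-Mir-577_5p by the narrowest margin. Hsa-Mir-28-P1_5p, at 1244, 2170 and 930 mature RPM in IP, had only 2 reads in the 3 inputs, a ratio of pooled reads of 7.13 with a counting interval of 1.83 to 61.2 (adjusted p = 0.0271).

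**Figure D3:**
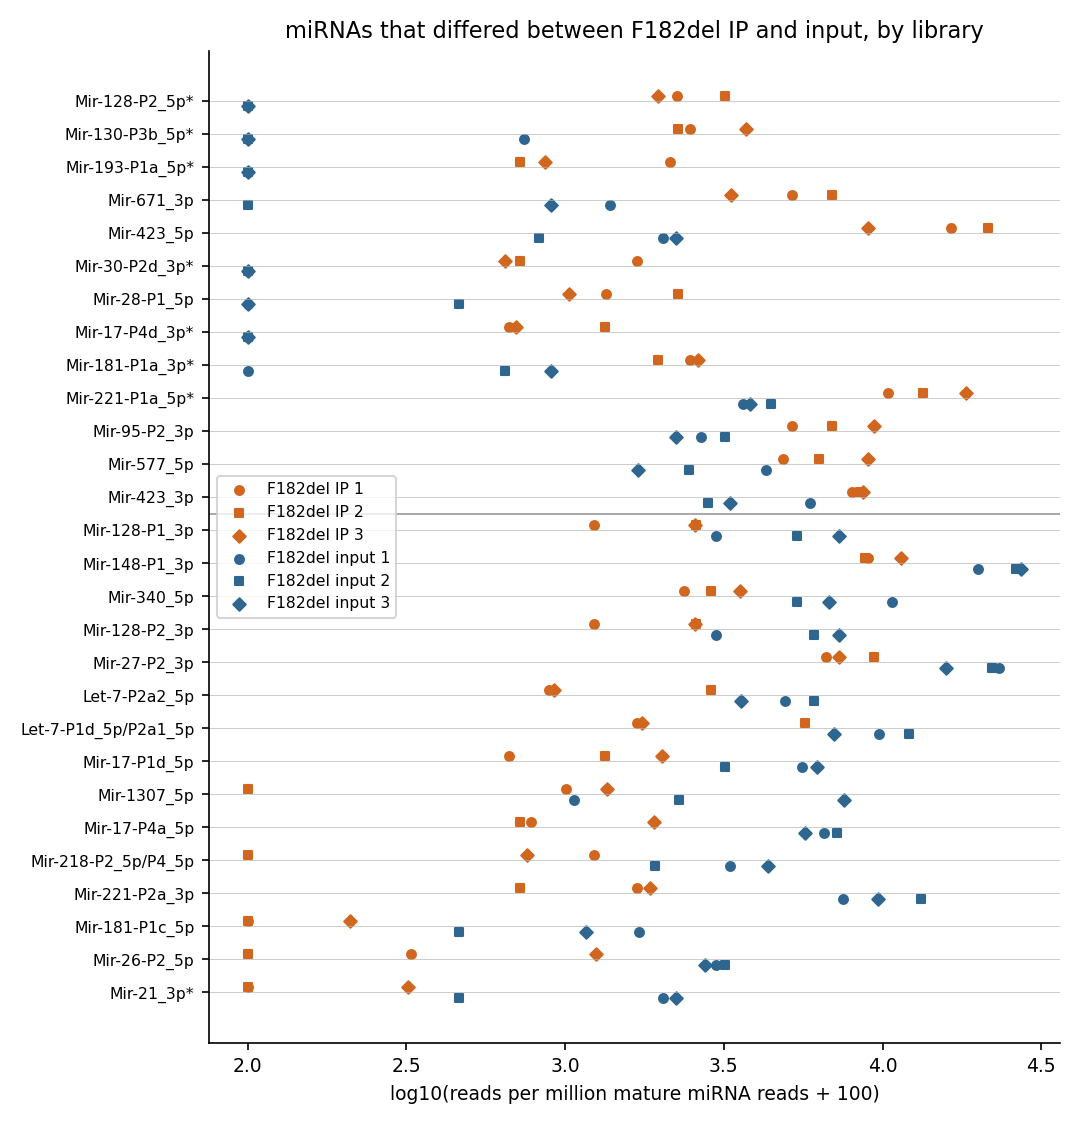
Level in each library (x axis, log10 of mature RPM plus 100) of the 28 miRNAs that differed between F182del IP (orange) and input (blue), with circles, squares and diamonds for replicates 1, 2 and 3. The 13 above the grey line rose and the 15 below it fell, and a point at 2.0 is a library with the miRNA listed at 0. Hsa-Mir-1307_5p is the one whose IP and input libraries overlap.

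Among the miRNAs that fell, Hsa-Mir-17-P4a_5p passed the test in all 12 alternative fits. It belongs to the Mir-17 family, part of the oncogenic cluster that promotes proliferation, and stood at 678, 620 and 1806 mature RPM in IP and 6437, 7082 and 5604 in input (difference -2.66, SE 0.52, adjusted p = 1.43e-05). Its relative Hsa-Mir-17-P1d_5p stood at 565, 1240 and 1916 mature RPM in IP and 5472, 3087 and 6138 in input (difference -1.98, SE 0.54, adjusted p = 0.00321). Both lay entirely below their inputs. Hsa-Mir-17-P4d_5p, the member of the family with the highest level, stood at 3617, 6200 and 5309 in IP and 14805, 8716 and 4804 in input, which overlap (difference -0.78, SE 0.33, adjusted p = 0.0599).

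The merged set Hsa-Let-7-P1d_5p and Hsa-Let-7-P2a1_5p, of the family that restrains growth-promoting genes such as RAS and LIN28, stood at 1583, 5580 and 1642 mature RPM in IP and 9656, 11985 and 6939 in input (difference -1.88, SE 0.37, adjusted p = 1.76e-05). The groups did not overlap, but the 8 reads of it in the empty vector IP amount to 118% of its RPM in the F182del IP. Hsa-Let-7-P2a2_5p shares its reads with this set in all 12 libraries of F182del and WT, so its call (difference -1.83, SE 0.53, adjusted p = 0.00448) adds none of its own. Hsa-Let-7-P2a3_5p, with another set of reads, stood at 5087, 4960 and 5418 mature RPM in IP and 5472, 3632 and 4270 in input, a difference of 0.22 (SE 0.38, adjusted p = 0.71).

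The most abundant miRNAs to fall were Hsa-Mir-148-P1_3p, known to target DNMT1, and Hsa-Mir-27-P2_3p, of a family known from fat and muscle cells. The former stood at 8931, 8679 and 11329 mature RPM in IP and 19955, 26148 and 27222 in input (difference -1.33, SE 0.25, adjusted p = 7.36e-06). The latter stood at 6557, 9299 and 7170 in IP and 23174, 21972 and 15746 in input (difference -1.39, SE 0.27, adjusted p = 9.11e-06). Both were at about 0.4 times their input level with no overlap, 0.395 and 0.378 times by the ratio of means, and both calls were kept without any 1 replicate. Hsa-Mir-340_5p stood at 2261, 2790 and 3448 in IP and 10621, 5266 and 6672 in input (difference -1.34, SE 0.39, adjusted p = 0.00448).

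The remaining 5 rested on few IP reads. Hsa-Mir-26-P2_5p stood at 226, 0 and 1149 mature RPM in IP and 2897, 3087 and 2669 in input (difference -3.11, SE 0.90, adjusted p = 0.00454). Its paralogues with the same seed, Hsa-Mir-26-P1_5p and Hsa-Mir-26-P4_5p, named here for that seed, stood at 7009, 9919 and 10946 in IP and 11587, 18885 and 25087 in input. Their difference of -0.94 (SE 0.26, adjusted p = 0.00385) is under the size required, and the groups did not overlap. The merged Mir-218 set, known from motor neurons, stood at 1130, 0 and 657 in IP and 3219, 1816 and 4270 in input (difference -2.74, SE 0.84, adjusted p = 0.00761). Hsa-Mir-1307_5p, at 904, 0 and 1259 in IP and 966, 2179 and 7473 in input, overlapped between groups, and its 2 reads in the empty vector IP amount to 162% of its RPM in the F182del IP (difference -2.36, SE 0.84, adjusted p = 0.0244). With that background taken off its difference was -4.61. In the main setting without replicate 2 its difference was -1.28 with an adjusted p of 0.331. Hsa-Mir-21_3p*, the single passenger strand that fell, had 0, 0 and 4 reads in IP and 6, 2 and 8 in input (adjusted p = 0.029). Hsa-Mir-181-P1c_5p had 0, 0 and 2 reads in IP and 5, 2 and 4 in input, 13.5 times lower in pooled reads with a counting interval of 2.95 to 125 (adjusted p = 0.0422).

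The 5 most abundant miRNAs of the F182del IP made up 61.1%, 62.3% and 55.7% of mature miRNA reads in IP and 53.3%, 55.4% and 52.8% in input. Hsa-Mir-10-P1c-v1_5p and Hsa-Mir-10-P1b-v1_5p, of a family with some hairpins in the HOX clusters, differed by 0.08 (SE 0.17, adjusted p = 0.773) and 0.07 (SE 0.18, adjusted p = 0.809). The former stood at 223830, 219777 and 210169 mature RPM in IP and 186032, 233703 and 200961 in input. Hsa-Mir-92-P1a_3p and Hsa-Mir-92-P1c_3p hold nearly the same reads (within 10% in all 12 libraries), and differed by 0.08 (SE 0.18, adjusted p = 0.802) and 0.11 (SE 0.18, adjusted p = 0.693). Their reads in the empty vector IP amount to 50.6% and 50.4% of their RPM in the F182del IP, and with that background taken off they were lower in IP, by -1.13 and -1.08. Hsa-Mir-186_5p stood at 58331, 71606 and 98353 in IP and 46347, 49755 and 43502 in input, apart in every library, with a difference of 0.68 (SE 0.19, adjusted p = 0.0043) that is under the size required and was 0.43 without replicate 3 (adjusted p = 0.139).

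Guide strands made up the greater part of reads in both fractions. Passenger strands accounted for 3.85% (95% Wilson interval 3.47 to 4.28), 3.50% (2.92 to 4.19) and 4.50% (4.21 to 4.81) of mature miRNA reads in the F182del IP and for 1.64% (1.25 to 2.15), 1.43% (1.15 to 1.78) and 2.05% (1.65 to 2.56) in its input. The passenger share was higher in IP by 2.24 ± 0.192 percentage points (SD, n = 3), with every IP library above every input. The exact sign-flip test over 3 pairs gave p = 0.25 and the exact permutation test of 3 against 3 gave p = 0.1, both two-sided and both the smallest p that they can give. Hsa-Mir-221-P1a_5p* alone made up 1.03%, 1.33% and 1.82% of reads in IP. Without it, an alternative added after seeing the data, it was higher by 1.27 points. No passenger read was listed in the empty vector IP, with 560 mature miRNA reads in all, where 3 reads are 14852 to 17241 mature RPM. In WT the passenger share was higher in IP by 1.18 ± 0.282 points (SD, n = 3), from 1.61%, 0.749% and 1.93% in input to 2.60%, 2.26% and 2.98% in IP. The F182del pairs differed by 2.21, 2.07 and 2.45 points, each above the 0.990, 1.51 and 1.05 of WT. This comparison was chosen after the values were seen, and its exact two-sided permutation test gave p = 0.1, again the lowest value possible.

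Passenger strands from both arms were among those that rose. Of 10 passenger strands from the 5p arm tested, 4 rose and 0 fell, with a median difference of 2.0, and of 13 from the 3p arm 3 rose and 1 fell, with a median of 0.98. Of 62 guides from the 5p arm, 3 rose and 9 fell (median -0.24), and of 36 from the 3p arm 3 rose and 5 fell (median -0.17). Over all miRNAs tested, passenger strands included, 10.7% rose and 12.4% fell. Of the guides 4.84% rose and 14.5% fell on the 5p arm, and 8.33% rose and 13.9% fell on the 3p arm. The guides thus lay below the overall share for a rise and slightly above it for a fall. Of the passenger strands 40% rose on the 5p arm and 23.1% on the 3p arm, in lists of few members. Over all 23 passenger strands tested the median was 1.68, with 17 above 0, and over the 98 guides it was -0.17, beside 0.08 over all 121. Strands listed at 0 in every input, such as Hsa-Mir-92-P2d_5p* and 4 that rose, passed the filter on IP reads alone. They could only come out above 0, and the IP libraries hold 30343 mature miRNA reads against 12361 in input. The passenger counts and median are therefore descriptions only. Of the 25 passenger strands listed, 2 were too low to be tested. In WT the median was 1.62 over 21 passenger strands and -0.06 over 95 guides.

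For 18 hairpins both strands are listed, so that the passenger can be read against the guide listed for it. This guide is not always the hairpin's own. Mir-181-P1a and Mir-181-P1b share a merged guide, and the guides of Mir-15-P2b and Mir-30-P2d are merged with a paralogue. Those of Mir-128-P2 and Mir-92-P1a share reads with a paralogue. The IP-minus-input difference of the passenger was above that of the guide, as a mean of 3 pairs, in 14 of 18, and in every pair in 11, and it was below in every pair in none. A passenger listed at 0 in both libraries of a pair gives a value set by the guide alone. This held in part at Mir-340, counted among the 11, whose passenger had 0, 0 and 4 reads in IP and 0 in every input. The median over the 18 hairpins was 1.87 (log2). Mir-128-P2, Mir-17-P4d, Mir-30-P2d, Mir-340 and Mir-92-P2d, all among the 11, had a passenger listed at 0 in every input. Such a passenger could not itself come out below 0, and the IP libraries hold more mature miRNA reads in all. The hairpin counts and the median are therefore descriptions only. The passenger of Mir-128-P2 has the same value in every input, so the size of its gap depends on the amount added before taking log2. The difference of this passenger, Hsa-Mir-128-P2_5p*, was 7.86 with 10 mature RPM added and 1.74 with 1000. In the main setting the widest gap was at Mir-128-P2, with 5.77, 6.24 and 5.8 in the 3 pairs. At Mir-221-P1a it was 0.45, 1.59 and 1.25, based on 466 passenger and 876 guide reads in IP and 49 and 165 in input, that is a passenger share of 34.7% (Wilson interval 32.2 to 37.3) against 22.9% (17.8 to 28.98). At Mir-148-P1 it was 2.55, 2.48 and 1.13. Its passenger, Hsa-Mir-148-P1_5p*, did not itself pass the test (difference 0.72, SE 0.49, adjusted p = 0.282), while its guide fell. Mir-21 had the lowest mean, with -7.08, 1.57 and -4.48 that differ in sign. In WT the mean was above 0 in 14 hairpins and the median was 2.04, and F182del was above WT in 10 of 18. The WT count includes Mir-374-P2, whose passenger had no read in WT, so its value there is set by the guide alone.

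**Figure D4:**
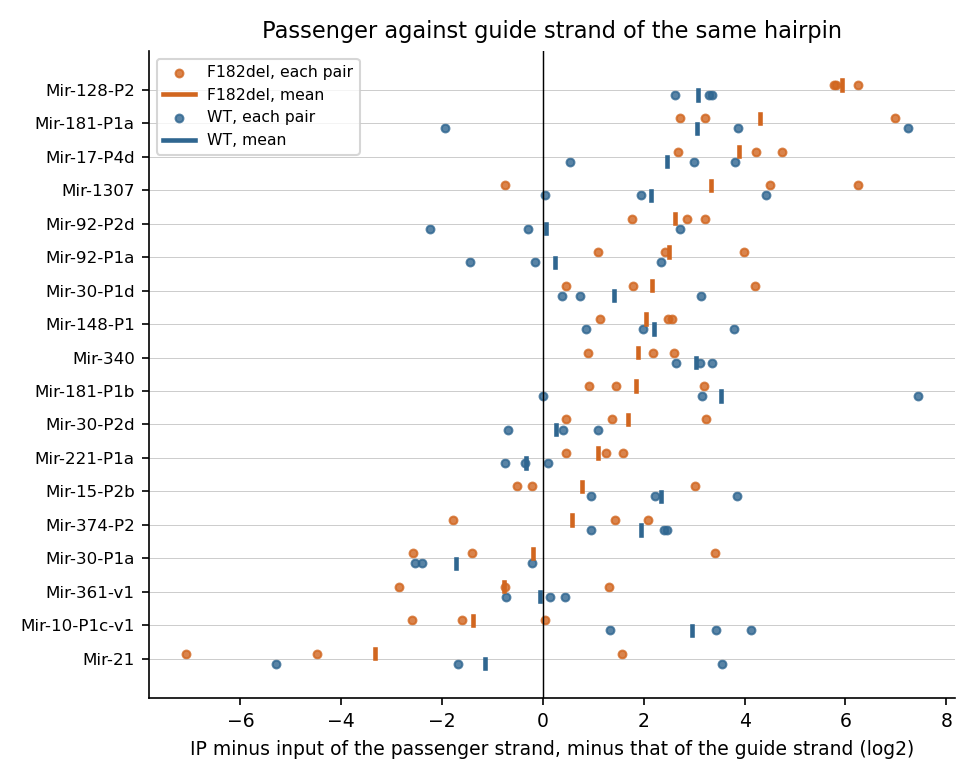
IP-minus-input difference of the passenger strand minus that of the guide strand listed for the same hairpin (x axis, log2) in the 3 pairs of F182del (orange) and of WT (blue), for the 18 hairpins with both strands listed, ordered by the F182del mean (bars are means). Most points lie right of 0 for both proteins, and Mir-128-P2 is the hairpin with the largest and tightest F182del values. Its passenger was listed at 0 in every input, so the size of these values depends on the amount added before taking log2.

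Families with at least 4 listed strands are given by their counts, beside the 10.7% and 12.4% called over all tested. Of 8 Mir-17 strands tested, 2 fell and 1 rose, the last being the passenger strand Hsa-Mir-17-P4d_3p*, and the median was -1.05. The family took 0.769%, 1.08% and 1.23% of mature miRNA reads in IP and 2.93%, 2.43% and 2.38% in input. Of 8 Let-7 strands tested, 2 fell, both from the shared reads above, and the median was -0.61. Its share of reads was 1.55%, 2.17% and 1.59% in IP and 3.06%, 2.94% and 2.24% in input. Neither of these shares overlapped between fractions. The Let-7 share sums the rows of the merged set and of Hsa-Let-7-P2a2_5p, so the reads they share can weigh in it more than once. Whether the Let-7 share lies apart without these rows was not tested, so it does not stand for the family as a whole. Of 6 Mir-92 strands none passed (median 0.09), and together with Mir-17 and Mir-19, which come from the same clusters, 1 rose and 2 fell of 16 (median -0.59).

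Few strands of the other families passed. None of the 5 Mir-10 strands (median 0.07) and none of the 4 Mir-15 strands (median -0.32) passed. The merged Hsa-Mir-15-P2a_5p and Hsa-Mir-15-P2b_5p, at 28261, 26658 and 34590 mature RPM in IP and 24461, 26148 and 30424 in input, differed by 0.14, and Hsa-Mir-15-P1a_5p, with 0, 0 and 6 reads in IP, by -1.99 (adjusted p = 0.191). Of 4 Mir-130 strands 1 rose (median 0.35), and Hsa-Mir-130-P4a_3p differed by 0.40 (adjusted p = 0.671). Of 5 Mir-181 strands 1 rose and 1 fell (median 0.14), and the guides Hsa-Mir-181-P1a_5p / -P1b_5p, merged because their values were identical, at 678, 620 and 766 mature RPM in IP and 3862, 1453 and 2669 in input, lay apart without passing (difference -1.71, adjusted p = 0.0707). Of 4 Mir-28 strands 1 rose (median 0.72), while Hsa-Mir-28-P2_3p and Hsa-Mir-28-P2_5p differed by 0.29 (adjusted p = 0.445) and 0.10 (adjusted p = 0.831). Of 8 Mir-30 strands 1 rose (median -0.23), with -0.13 (adjusted p = 0.796) for Hsa-Mir-30-P1a_5p and -0.75 (adjusted p = 0.149) for Hsa-Mir-30-P2a_5p.

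Mir-320 is a family whose hairpins are made without the Drosha step. Neither of its 2 measured members passed in F182del (median 0.24). Hsa-Mir-320-P1_3p stood at 1470, 620 and 1642 mature RPM in IP and 1287, 726 and 801 in input (difference 0.31, SE 0.85, adjusted p = 0.831), while in WT it rose by 1.77 (SE 0.46, adjusted p = 0.00192). The difference between the proteins was -1.46 (SE 0.96, adjusted p = 0.479) and did not pass. The merged Hsa-Mir-320-P2a_3p and Hsa-Mir-320-P2b_3p had 2, 0 and 4 reads in IP and 2, 0 and 0 in input, and differed from WT by -2.62 (SE 1.32, adjusted p = 0.258).

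WT was tested in the same way on its own libraries, with 14 of 116 higher (12.1%) and 13 lower (11.2%). Across the 114 miRNAs tested in both, the F182del and WT differences had a Pearson's r of 0.62 and a Spearman's rho of 0.64, and r was 0.77 over the 68 with a mean of at least 1000 mature RPM. This is a description across miRNAs, which are not independent replicates and whose values share the beads, the kit and the annotation. Of the 13 that rose with F182del 5 also rose with WT (38.5% of the F182del and 35.7% of the WT list), and of the 15 that fell 9 also fell with WT (60% and 69.2%). None was called in opposite directions. Of those tested in WT, all 12 that rose with F182del were above 0 there and all 14 that fell were below 0. Among the 12, Hsa-Mir-128-P2_5p*, Hsa-Mir-130-P3b_5p* and Hsa-Mir-30-P2d_3p* had no read in any WT input. They passed the WT filter on IP reads alone and could only come out above 0. Hsa-Mir-17-P4a_5p differed by -2.69 in WT, Hsa-Mir-148-P1_3p by -1.13 and Hsa-Mir-27-P2_3p by -1.15.

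**Figure D5:**
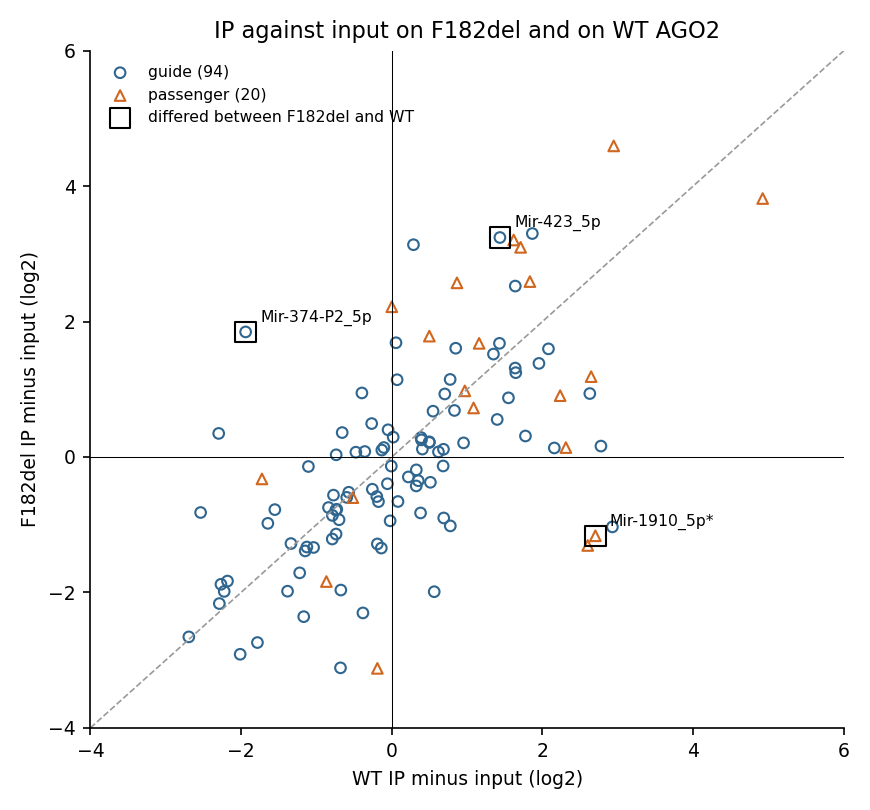
IP-minus-input difference on F182del (y axis, log2) against that on WT (x axis, log2) for the 114 miRNAs tested in both, with guides as circles, passenger strands as triangles and the dashed line marking equal values. Points follow the line with a Pearson's r of 0.62, and squares mark the 3 of the 4 miRNAs that differed between the proteins and were tested in both.

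In a fit over both proteins, the enrichment of 3 of 122 miRNAs was greater with F182del than with WT (2.46%) and that of 1 was smaller (0.820%), and 23 had an unadjusted p below 0.05. Hsa-Mir-423_5p rose with both, by 3.24 with F182del and by 1.44 (SE 0.39, adjusted p = 0.00304) with WT, and the difference was 1.81 (SE 0.56, adjusted p = 0.0392). It was 1.08 without F182del replicate 2. The other 3 rest on few reads. Hsa-Mir-193-P1a_5p* had 18, 2 and 14 reads in the F182del IP and was listed at 0 in every other library of the series, of which the deepest WT IP resolves 3 reads at 97.4 mature RPM. Hsa-Mir-374-P2_5p had 0, 2 and 10 reads in the F182del IP and none in its input, against 0, 0 and 2 in the WT IP and 4, 2 and 2 in the WT input. For Hsa-Mir-1910_5p* the F182del IP held 3, 0 and 0 reads and its input 3, 2 and 0, against 32, 3 and 2 in the WT IP and none in its input. Each had an adjusted p of 0.0392, and none of the 4 passed when any library pair was left out or without the pairing of IP with input.

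Besides miRNAs given above, the study named others on these samples for the comparison of F182del with WT in IP, and their values here are therefore not independent evidence. Hsa-Mir-374-P2_3p* was listed in no library of another genotype, and stood at 3052, 1240 and 1642 mature RPM in the F182del IP and 644, 545 and 0 in its input. The groups lay apart, with a difference of 2.42 (SE 0.99, adjusted p = 0.0521). Hsa-Mir-582-v1_3p* stood at 791, 1240 and 1697 in IP and 644, 363 and 0 in input (difference 1.99, SE 1.09, adjusted p = 0.165), and had no read in WT. Both thus had reads in the F182del input as well. Hsa-Mir-345_5p stood at 1809, 1550 and 1861 in IP and 3862, 2542 and 3736 in input, apart but not passing (difference -0.90, SE 0.53, adjusted p = 0.198). The differences of Hsa-Mir-375_3p (-0.37, adjusted p = 0.833), Hsa-Mir-589_5p (0.36, adjusted p = 0.837) and Hsa-Mir-769_5p (-0.13, adjusted p = 0.839) did not pass.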

How the data were processed

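Small RNA of F182del, WT and empty vector cells was read from input and IP libraries made with the TruSeq Small RNA kit. Per the labels and methods, the authors profiled them with sRNAbench against MirGeneDB 2.1 on GRCh38 and deposited RPM (scaled to 1000000 reads of the library in all) for 135 mature miRNAs. The trimming of adapters and the treatment of reads shared between miRNAs are not given in the sources used here. All values divide by the RPM that 1 read is worth into whole numbers (within 0.02 reads), which gave the reads and totals (101201 to 754009 for F182del IP). No count model was fitted, since the values could not be shown to be unadjusted counts. Rows with identical values in all 36 libraries (22 rows in 11 sets) were summed, which left 124 miRNAs.

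Each library was rescaled to 1000000 mature miRNA reads (mature RPM). Differences were fitted in R 4.3.3 with limma 3.58.1 (lmFit, then eBayes with a trend on the level) to log2(mature RPM + 100), with the replicate as a block, over miRNAs with a mean of at least 100 mature RPM over the 6 libraries. The filter keeps a miRNA that is high in 1 fraction only. limma took the error of each miRNA from the trend over all of them, so the errors are not each miRNA's own. The difference from WT was fitted over 12 libraries with the lysate as a block. By the methods, the input is an aliquot of the lysate used for the IP, which is why same-numbered libraries were paired, although the correlations of their deviations from the group means were low (0.01, 0.12 and 0.19 for F182del). Exact tests were made in Python 3.11.15 with scipy 1.17.1 for intervals. The fits were tested on simulated data.

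Named are up to 10 miRNAs with the largest rise and fall among those called, the 5 most abundant in IP, up to 5 that differed from WT, 10 that the study names for F182del and the 2 most abundant of each list (strand by arm, families with at least 4 listed strands, Mir-17 with Mir-19 and Mir-92, and Mir-320). The other called miRNAs were named after their values were seen. The members and lists were chosen with earlier results of these data known. Alternatives were other pseudocounts, filters and scalings, no block, every listed row by itself, the empty vector IP taken off, and each replicate left out.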

Additional observations from a re-analysis of the deposited data

Results flagged for a closer look

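The enrichment of 4 miRNAs differed between F182del and WT by the test of the difference itself, in limma's fit over 12 libraries with an adjusted p of 0.0392 each. The difference of enrichment, F182del minus WT, was 1.81 for Hsa-Mir-423_5p, with the F182del difference above that of WT in a fit that rests on 376 reads in the F182del IP. It was 3.46 for Hsa-Mir-193-P1a_5p*, which had 34 reads in the F182del IP and none in any library of WT. It was 3.79 for Hsa-Mir-374-P2_5p, which had 12 reads in the F182del IP, and -3.87 for Hsa-Mir-1910_5p*, which had 3. The fitted values of the last 3 depend on the pseudocount and are no measure of size. Groups hold 3 libraries, so single libraries were not tested as outliers.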

How the results depend on the processing

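In place of 13 higher and 15 lower in IP, the fits that left out a replicate called 4 to 8 higher, of which 8, 3 and 4 without replicate 1, 2 and 3 were among the 13, and 7 to 8 lower, of which 7, 7 and 6 were among the 15. Without a trend in the spread, added after seeing the data, 9 were higher and 5 lower. In the other alternatives 10 to 15 were higher and 10 to 18 lower. Of the calls, 1 higher (Hsa-Mir-423_5p) and 2 lower (Hsa-Mir-17-P4a_5p and Hsa-Mir-221-P2a_3p) were kept in all 12 alternative fits. Without the replicate block 14 were higher, all 13 of the paired fit among them, and 13 lower. With the empty vector background taken off, Hsa-Mir-92-P1a_3p and Hsa-Mir-92-P1c_3p were lower in IP, by -1.13 and -1.08 in place of 0.08 and 0.11. Median-of-ratios scaling moved the median of all miRNAs from 0.08 to 0.34. The difference from WT was the least stable result. The 3 more enriched and 1 less enriched with F182del became 1 and 0 with a pseudocount of 10 or of 1000 mature RPM. They became 0 and 0 with a filter at 1000 mature RPM, without the pairing block, without a trend in the spread, with the background taken off and, over each F182del or WT replicate left out, 0 to 0. With every listed row by itself 2 were less enriched. The cause of these changes was not tested, apart from the fewer libraries when a replicate is left out. The passenger share was higher in IP by 2.14 to 2.33 points over the replicates left out, 3.42 with the background taken off and 4.45 within hairpins with both strands listed. The ratio of mature miRNA shares was 9.74 to 12.6 over the replicates left out. Input depth, where 3 reads are 545 to 966 mature RPM, limits every bound given.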
